A study of Mus musculus with 6 samples.

Results

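The genes of glucose uptake, glycolysis and pyruvate oxidation were taken from the left ventricle of mice with a pressure-loaded heart, as the rows of the gene count table whose gene name is one of 42 listed symbols. All 42 were among the 54532 genes of the table, in 43 rows since the name Aldoa belongs to 2 identifiers. Of these genes, 41 had enough counts for the test, which covered 14774 genes in all. The gene left out of the test was Aldoc, together with the second identifier of Aldoa.

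Messenger RNA was sequenced from 3 TG and 3 NTG left ventricles, 4 weeks after aortic banding (AB), in which a band around the aorta makes the ventricle pump against a raised pressure. All mice of the study were male and 8 to 10 weeks old at surgery. TG mice have the genotype label HINT2CTG-Myh6Cre. They carry a HINT2 transgene (encoding a mitochondrial nucleotide hydrolase) behind the broadly active CAG promoter and a floxed stop, opened by a tamoxifen-dependent Cre under the cardiomyocyte promoter of Myh6, with tamoxifen at 5 mg/kg per day for 7 days. NTG mice are the non-transgenic controls on C57BL/6J. The sources used here do not state whether NTG mice had Cre or tamoxifen, so the transgene, Cre and tamoxifen cannot be told apart. Both groups had AB, and sham-operated hearts were not analysed here.

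Glucose enters the cardiomyocyte through GLUT transporters, is phosphorylated by hexokinase and is broken down by glycolysis to pyruvate, which either becomes lactate or enters mitochondria through the pyruvate carrier and is oxidized by the pyruvate dehydrogenase (PDH) complex. Pyruvate dehydrogenase kinases switch this complex off and its phosphatases switch it on. The adult heart mostly burns fatty acids, and under pressure overload it is known to shift toward glucose and toward isoforms used by fetal and non-muscle cells, so the pairs of muscle and general isoforms of one step are of interest here.

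Libraries held 14863568 to 17581220 counts on genes in NTG and 14944465 to 17235802 in TG. The library labelled NTG 1 held 12 counts of Hint2, against 545 and 559 in the other NTG libraries and 793 to 859 in TG, so it stood apart from its label for the targeted gene, and results are given with and without it. Genes of the mitochondrial genome took 13.4% to 19.2% of counts in NTG and 16.0% to 21.5% in TG. Cell type marker lists differed between the groups too. All 10 cardiomyocyte markers were higher in TG, 2 of them at an unadjusted p under 0.05 (summed level 26029 to 41326 CPM in NTG and 40801 to 49196 CPM in TG, where CPM is the count scaled to a common library size with TMM factors), and all 8 fibroblast markers were lower, 6 of them at an unadjusted p under 0.05 and 4 called by DESeq2 (4709 to 10852 CPM in NTG and 2317 to 4017 CPM in TG). Neutrophil markers summed to 187 CPM in NTG 2 and to 3.64 to 23.8 CPM in the other libraries. The 3 atrial markers summed to 67.4 CPM in the library labelled NTG 1, 29.2 CPM in TG 2 and 167 CPM in TG 3, and to 2.18 to 4.54 CPM in the rest. Of 6 smooth muscle and pericyte markers, 4 were higher in TG, 3 of them at an unadjusted p under 0.05 and 2 called by DESeq2, with overlapping sums (1129 to 1467 CPM in NTG, 1244 to 1504 CPM in TG). All 7 macrophage markers were lower, 3 at an unadjusted p under 0.05 (477 to 924 CPM in NTG, 375 to 529 CPM in TG), as were all 5 erythroid markers, each at an unadjusted p under 0.05 and 4 called by DESeq2 (1310 to 2245 CPM in NTG, 762 to 908 CPM in TG). Skeletal muscle markers summed to 2.16 to 3.03 CPM in the 6 libraries, with Myh4 at 0. In bulk tissue, fewer cells of a type and less RNA per cell cannot be told apart.

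Within the 41 genes tested, no single difference passed the test. Values were higher in TG for 23 members (56.1%, beside 48.7% of all genes) and lower for 18. Eno3, Pgam2, Pfkm and all 5 genes of the PDH complex were among the 23. Slc2a1, Eno1, Pgam1, Pfkp, Pdk3 and Pdk4 were among the 18. edgeR's quasi-likelihood test called 0 of 41 members at an adjusted p under 0.05 with a log2 fold change over 0.5 in size, beside 0% of all genes. The smallest adjusted p of a member was 0.207. At an unadjusted p under 0.05, 10 members were higher in TG (24.4% of the members, beside 8.83% of all genes) and 8 were lower (19.5%, beside 9.76%). These counts changed with the library left out, which also leaves fewer libraries for the test. At that p, 0, 12 and 2 members were higher without TG 1, 2 and 3, and 18, 5 and 1 without NTG 1, 2 and 3. Lower at that p were 3, 4 and 5 members without TG 1, 2 and 3, and 10, 5 and 6 without NTG 1, 2 and 3. The number of all genes at that p moved with them, from 2747 with every library to 1608, 2909 and 1721 without TG 1, 2 and 3, and 4081, 1567 and 1848 without NTG 1, 2 and 3. DESeq2 called 1 member higher, Eno3, beside 1.54% of all genes, and 1 lower, Slc2a1, beside 2.4%, and limma-voom called 0 members. In 6 members every TG library lay above every NTG library (14.6% of the members, beside 11.2% of all genes), and in 8 every TG library lay below (19.5%, beside 12.3%). The median log2 fold change was 0.053 over the members and -0.0081 over all genes tested, while the median size of the change was 0.37 against 0.21, so members differed in both directions. Together the members took 1.29% to 1.41% of counts in NTG and 1.37% to 1.41% in TG.

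The library labelled NTG 1 was the NTG library nearest to the TG mean for 32 of 41 members, and NTG 2 was the farthest for 30. Without the library labelled NTG 1, edgeR called Ldhd and Eno3 higher, beside 2.67% of all genes, and Eno1 and Pfkp lower, beside 2.85%. DESeq2 without that library called 11 members higher, beside 6.06% of all genes, namely Pdk2, Pfkfb2, Slc2a4, Ldhb, Ldhd, Eno3, Pgam2, Pfkm, Mpc2, Dld and Pdhb, and 4 lower, beside 5.89%, namely Pfkfb4, Slc2a1, Eno1 and Pfkp. The same order of libraries was seen in the marker sums, in which NTG 2 had the lowest cardiomyocyte sum (26029 CPM) and the highest fibroblast sum (10852 CPM), and NTG 1 the highest cardiomyocyte and lowest fibroblast sums of NTG (41326 and 4709 CPM). The part of these markers in the differences of the members was not tested.

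**Figure D1:**
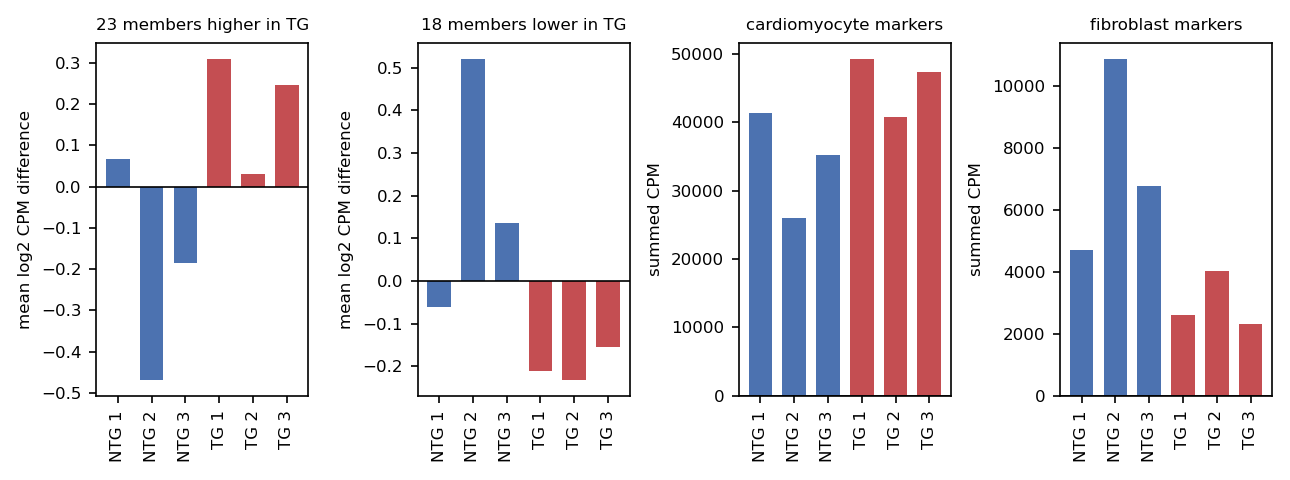
For each of the 6 libraries, bars give the mean log2 CPM, relative to each gene's mean over the libraries, of the 23 members higher in TG and of the 18 lower in TG, and the summed CPM of 10 cardiomyocyte and 8 fibroblast markers. The 2 left panels show what the sign of the change chose, and NTG 2 lies at the extreme of all 4 panels while the library labelled NTG 1 lies nearest to TG.

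**Figure D2:**
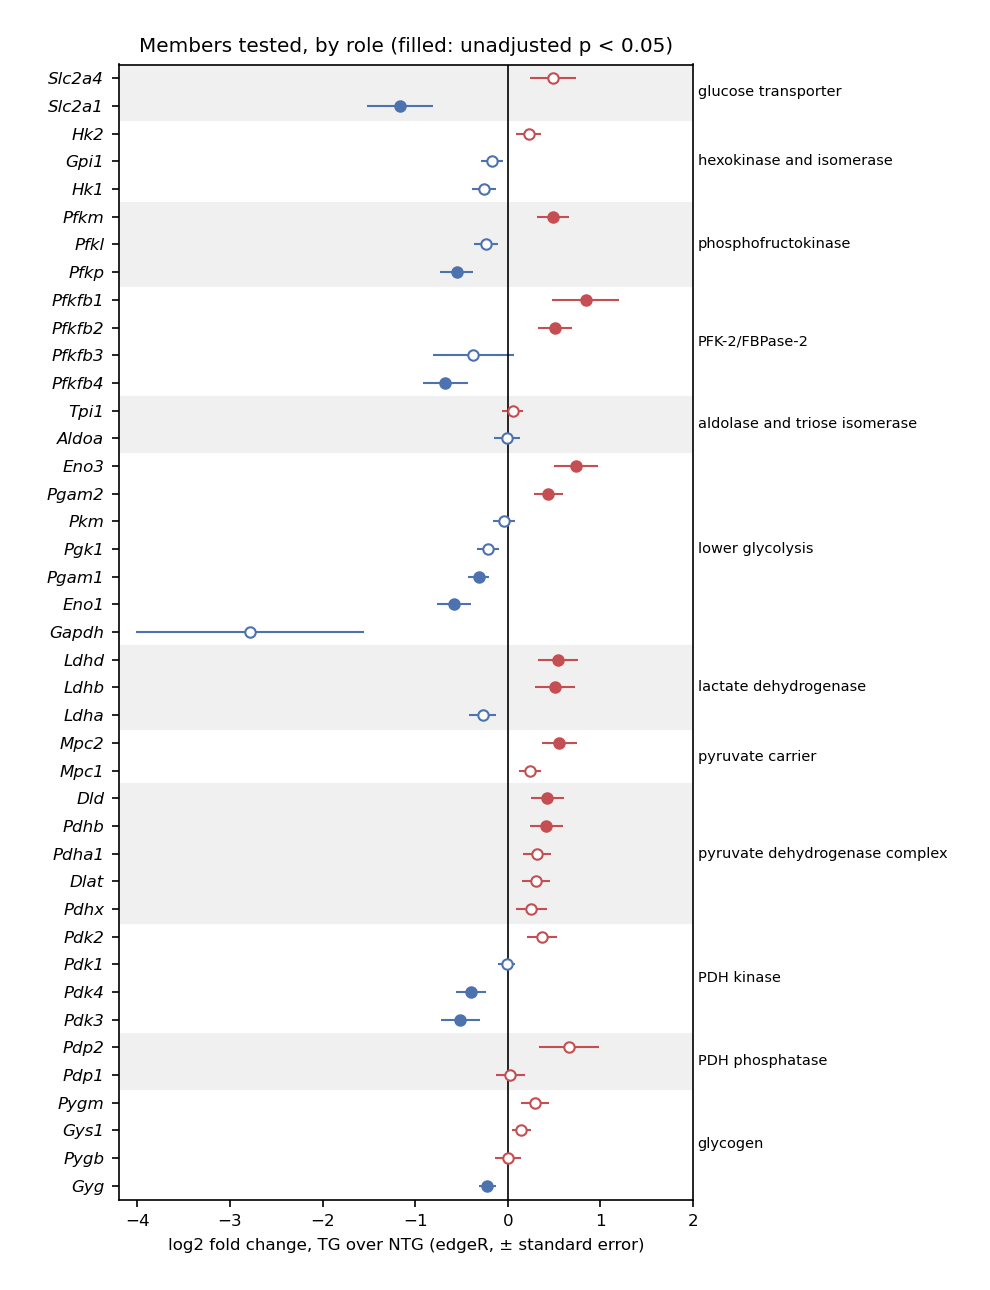
The log2 fold change of TG over NTG (x axis, edgeR, bars are the standard error) of the 41 members tested, ordered by role, with filled points at an unadjusted p under 0.05. All 5 genes of the PDH complex lie to the right of 0, and Gapdh at -2.78 has the widest bar.

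Of the 42 members, 40 had an entry in the RefSeq promoter table (GRCm38.p6), and Slc2a4 and Pdp1 did not. The 250 bases before a start were searched on both strands, over any RefSeq start of a gene, for the core of the hypoxia response element, ACGTG, the site at which HIF binds. It was found in 17 of 40 members (42.5%), beside 18.5% of 27025 genes of the table. Among members at an unadjusted p under 0.05 it was in 4 of 10 that were higher and 3 of 8 that were lower. The element of the estrogen-related receptors, AAGGTCA, was in 2 of 40 members (Eno1 and Pfkfb1; 5%, beside 4.7% of all genes), and the MEF2 site, which is known from muscle genes, was in 2 of 40 (Pfkfb1 and Pgam2; 5%, beside 3.42%). The motifs were chosen after the values were known, they can overlap other motifs, and a match is a description of the letters. Windows of 4 members whose levels are described below are shown, in which capitals mark ACGTG on either strand in Pgk1 and Pgam1, the MEF2 site in Pgam2, and Eno3 holds none of the searched letters.

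Pgk1, chrX:106186850-106187099, plus strand: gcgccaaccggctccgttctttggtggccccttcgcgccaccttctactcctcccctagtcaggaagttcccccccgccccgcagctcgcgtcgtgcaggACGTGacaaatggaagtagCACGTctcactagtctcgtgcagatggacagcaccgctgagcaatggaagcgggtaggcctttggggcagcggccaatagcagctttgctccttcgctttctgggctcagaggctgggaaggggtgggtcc
Pgam1, chr19:41911621-41911870, plus strand: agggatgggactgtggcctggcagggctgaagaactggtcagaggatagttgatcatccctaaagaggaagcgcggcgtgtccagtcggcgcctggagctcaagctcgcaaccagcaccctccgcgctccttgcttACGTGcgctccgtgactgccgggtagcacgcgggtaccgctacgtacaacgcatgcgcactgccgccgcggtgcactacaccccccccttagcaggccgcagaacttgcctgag
Pgam2, chr11:5803797-5804046, minus strand: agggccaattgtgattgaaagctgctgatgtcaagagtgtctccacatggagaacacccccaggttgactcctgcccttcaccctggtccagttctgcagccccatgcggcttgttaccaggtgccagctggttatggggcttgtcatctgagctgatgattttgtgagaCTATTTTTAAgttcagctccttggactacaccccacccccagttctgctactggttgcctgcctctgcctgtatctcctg
Eno3, chr11:70656926-70657175, plus strand: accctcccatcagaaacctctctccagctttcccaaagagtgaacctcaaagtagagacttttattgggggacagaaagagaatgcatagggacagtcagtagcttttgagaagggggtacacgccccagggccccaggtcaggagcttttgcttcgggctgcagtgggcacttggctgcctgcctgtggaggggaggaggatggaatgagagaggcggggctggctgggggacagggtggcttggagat

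The 2 glucose transporters had values in opposite directions. Slc2a1 (GLUT1, the transporter that works without insulin; ENSMUSG00000028645, chr4:119108711-119137983 on GRCm38) had 36.9, 82.2 and 34.0 CPM in NTG 1, 2 and 3, and 19.9, 26.9 and 21.5 CPM in TG 1, 2 and 3. All TG libraries lay below all NTG libraries, and NTG 2 was the highest of the 6. The log2 fold change of Slc2a1 was -1.16 (SE 0.35, unadjusted p = 0.0142, edgeR adjusted p = 0.207), and it was -1.35 without the library labelled NTG 1 (adjusted p = 0.116). DESeq2 gave Slc2a1 an adjusted p of 0.0175, and 0.0680 without NTG 2, the library that set much of the size: edgeR's log2 fold change without it was -0.64 (adjusted p = 0.374). Without TG 1 or TG 3, DESeq2 also gave adjusted p values over the threshold (0.180 and 0.179). Slc2a4 (GLUT4, the insulin-regulated transporter of muscle and fat) had 256, 129 and 190 CPM in NTG and 296, 220 and 289 CPM in TG, with overlap only between NTG 1 and TG 2. Its log2 fold change was 0.49 (SE 0.25, unadjusted p = 0.0842), and it was 0.75 without the library labelled NTG 1 and 0.27 without NTG 2 (edgeR adjusted p = 0.0684 and 0.612). Per length, the ratio of Slc2a4 to Slc2a1 was 6.99, 1.58 and 5.62 in NTG and 15, 8.26 and 13.5 in TG, so it was above every NTG value in every TG library.

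The hexokinases, which trap glucose as glucose phosphate, differed by small amounts. Hk2, the main form of the adult muscle cell, had 268, 197 and 221 CPM in NTG and 281, 275 and 248 CPM in TG (log2 fold change 0.23, SE 0.14, unadjusted p = 0.129). Hk1, the general form, had 183, 231 and 243 CPM in NTG and 193, 186 and 172 CPM in TG (log2 fold change -0.25, SE 0.13, unadjusted p = 0.0817). The length-normalized ratio of Hk2 to Hk1 was 2.06 to 2.12 in TG and 1.22 and 1.3 in NTG 2 and NTG 3, whereas the library labelled NTG 1, at 2.10, lay within the TG range. Gpi1, the isomerase of the next step, was lower in TG by a log2 fold change of -0.17, within the spread of the libraries (unadjusted p = 0.183). Without the library labelled NTG 1 the values were 0.36 for Hk2, -0.37 for Hk1 and -0.24 for Gpi1, and without NTG 2 they were 0.13 for Hk2 and -0.21 for Hk1.

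Phosphofructokinase is the step at which glycolysis is mainly controlled, and its muscle and platelet subunits differed in opposite directions. Pfkm (the muscle subunit; ENSMUSG00000033065, chr15:98092589-98132451) had 571, 374 and 484 CPM in NTG and 716, 611 and 683 CPM in TG. No TG library reached down to NTG, and the log2 fold change was 0.49 (SE 0.17, unadjusted p = 0.0205, edgeR adjusted p = 0.215). Pfkp (the platelet subunit; chr13:6579768-6648777) had 134, 198 and 207 CPM in NTG and 113, 139 and 115 CPM in TG, where TG 2 lay above the library labelled NTG 1. Pfkp differed by -0.55 on the log2 scale (SE 0.18, unadjusted p = 0.0143, edgeR adjusted p = 0.207), and by -0.73 without the library labelled NTG 1 (adjusted p = 0.0236), -0.48 without NTG 2 and -0.44 without NTG 3 (adjusted p = 0.474 and 0.415). The liver subunit gene Pfkl differed by -0.23 (unadjusted p = 0.105). Pfkm was at 0.64 and Pfkl at -0.36 without the library labelled NTG 1, and without NTG 2, Pfkm was at 0.34. The ratio of Pfkm to Pfkp per length was 17.1, 7.59 and 9.40 in NTG and 25.5, 17.6 and 23.7 in TG. In TG 2 it lay just above the library labelled NTG 1. The deposited length of Pfkp is longer than its longest coding transcript (13401 against 4145 bases). This ratio is therefore compared between libraries and is not read as an isoform proportion.

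The Pfkfb genes encode bifunctional enzymes that make or remove the allosteric activator of phosphofructokinase. Pfkfb2, the form known from heart, had 33.1, 20.2 and 28.4 CPM in NTG and 42.3, 39.5 and 34.3 CPM in TG (log2 fold change 0.51, SE 0.18, unadjusted p = 0.0226), with no overlap. Pfkfb4 had 7.37, 13.9 and 9.66 CPM in NTG and 5.91, 6.20 and 7.28 CPM in TG (log2 fold change -0.67, SE 0.24, unadjusted p = 0.0229), again with no overlap but with TG 3 close to the library labelled NTG 1. Pfkfb1 was counted only 10 to 25 times in a library, at 0.819, 0.637 and 0.579 CPM in NTG and 1.01, 1.08 and 1.54 CPM in TG, and its log2 fold change of 0.84 (SE 0.36, unadjusted p = 0.0478) rests on those few counts. Pfkfb3, the form with the most kinase activity, had 32.8, 72.1 and 35.6 CPM in NTG and 24.1, 26.9 and 57.8 CPM in TG. NTG 2 and TG 3 were its high libraries, and the groups overlapped (log2 fold change -0.37, SE 0.43, unadjusted p = 0.423). Leaving out the library labelled NTG 1 gave 0.67 for Pfkfb2, -0.87 for Pfkfb4, 0.98 for Pfkfb1 and -0.57 for Pfkfb3. Leaving out NTG 2 gave 0.33 for Pfkfb2 and -0.40 for Pfkfb4 (edgeR adjusted p = 0.466 and 0.522). For Pfkfb3, NTG 1 and NTG 3, at 32.8 and 35.6 CPM, lay below the TG mean of 36.3 CPM, so its lower mean in TG rests on NTG 2.

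Aldolase and triose phosphate isomerase, which split the sugar into triose phosphates, had fold changes close to 0. Aldoa, the muscle aldolase, had a mean of 690 in NTG and 686 in TG in CPM per kilobase, with a log2 fold change of -0.01 (SE 0.14, unadjusted p = 0.953). Aldoa levels were 1948, 1888 and 2188 CPM in NTG and 2111, 1900.2 and 1978 CPM in TG, and the groups overlapped. Tpi1, with 610.3, 570.2 and 622 CPM in NTG and 649.8, 599.8 and 620.2 CPM in TG, differed by 0.05 (unadjusted p = 0.659). Without the library labelled NTG 1 these were -0.03 and 0.06. Aldoc was counted 2 to 10 times in a library and the second Aldoa identifier 1 to 8 times, so no ratio between Aldoa and Aldoc is read.

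The lower part of glycolysis, from glyceraldehyde phosphate to pyruvate, held the muscle-isoform genes Eno3 and Pgam2. Eno3 (the muscle enolase; ENSMUSG00000060600, chr11:70657202-70662513) had 744, 412 and 475 CPM in NTG and 1036, 750 and 937 CPM in TG. Every TG library lay above every NTG library, though TG 2 exceeded the library labelled NTG 1 by little. Eno3 had a log2 fold change of 0.74 (SE 0.24, unadjusted p = 0.0150, edgeR adjusted p = 0.208), and of 1.03 without the library labelled NTG 1 (adjusted p = 0.0262), and DESeq2 over all libraries gave an adjusted p of 0.0409. That DESeq2 call was kept without TG 2 or the library labelled NTG 1, and with any other library left out its adjusted p was 0.268 to 0.342. Eno1 (the general enolase; chr4:150236721-150248879) had 166, 284 and 238 CPM in NTG and 147, 152 and 162 CPM in TG. Its libraries did not overlap, and its log2 fold change was -0.58 (SE 0.18, unadjusted p = 0.0143, edgeR adjusted p = 0.207). Without the library labelled NTG 1 the value for Eno1 was -0.77 (adjusted p = 0.0211), and without NTG 2 it was -0.40 (adjusted p = 0.459). The per-length ratio of Eno3 to Eno1 was 13.9, 4.49 and 6.16 in NTG and 21.8, 15.2 and 17.9 in TG. The deposited length of Eno1 is also longer than its longest coding transcript (5379 against 2027 bases), so this ratio compares libraries only.

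Phosphoglycerate mutase differed likewise. Pgam2 (the muscle form; chr11:5801640-5803733) had 445, 308 and 391 CPM in NTG and 560, 484 and 506 CPM in TG, without overlap (log2 fold change 0.44, SE 0.16, unadjusted p = 0.0231). Pgam1 (the general form; chr19:41911871-41918664) had 92.2, 106 and 86.2 CPM in NTG and 83.4, 71.1 and 74.0 CPM in TG, also without overlap (log2 fold change -0.32, SE 0.11, unadjusted p = 0.0209). The ratio of Pgam2 to Pgam1 per length was 14.6 to 14.9 in the TG libraries, which lay closer together than the NTG libraries at 10.5, 6.34 and 9.88. Pgk1, the kinase that makes the first ATP of glycolysis, had 356, 432 and 399 CPM in NTG and 348, 333 and 342 CPM in TG. Its TG libraries lay just below NTG (log2 fold change -0.21, SE 0.12, unadjusted p = 0.104), and Pkm, the pyruvate kinase of muscle, was within the spread (-0.05, unadjusted p = 0.71). The values without the library labelled NTG 1 were 0.56 for Pgam2, -0.34 for Pgam1, -0.29 for Pgk1 and -0.07 for Pkm, and without NTG 2 they were 0.30 for Pgam2 and -0.23 for Pgam1.

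Several members share transcript sequence with near-identical copies or with other genes, so that their reads can be assigned elsewhere. Gapdh, the dehydrogenase of the first oxidation step, was counted only 83, 2358 and 136 times in NTG and 125, 78 and 113 times in TG, which NTG 2 alone raises, and its log2 fold change of -2.78 (SE 1.23, unadjusted p = 0.0614) came with overlap (-3.31 without the library labelled NTG 1). Of the 100-base windows of its transcripts, 78.05% were shared with 86 other genes, so the Gapdh counts are not read as its level. The shared part was 67.03% in Pgk1, 59.02% in Eno1, 39.74% in Pgam1, 23.88% in Pfkfb2 (with Gm29427), 19.72% in Mpc1 and 16.04% in Pfkp (with Pitrm1, a different protein-coding gene), and 0% in Eno3, Pgam2 and Pfkm. Adding the counts of the annotated copies left Pgk1, Eno1 and Pgam1 below NTG in every TG library, with mean log2 differences of -0.22, -0.57 and -0.31, while Gapdh with its copies overlapped. The copies of Pgk1, Eno1 and Pgam1 held only 0.97 to 3.56, 5.12 to 9.19 and 1.02 to 1.51 CPM, so these sums had to follow the genes' own counts. Reads dropped for mapping to several places would be in neither count, so the sums cannot show what the sharing did to these genes.

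**Figure D3:**
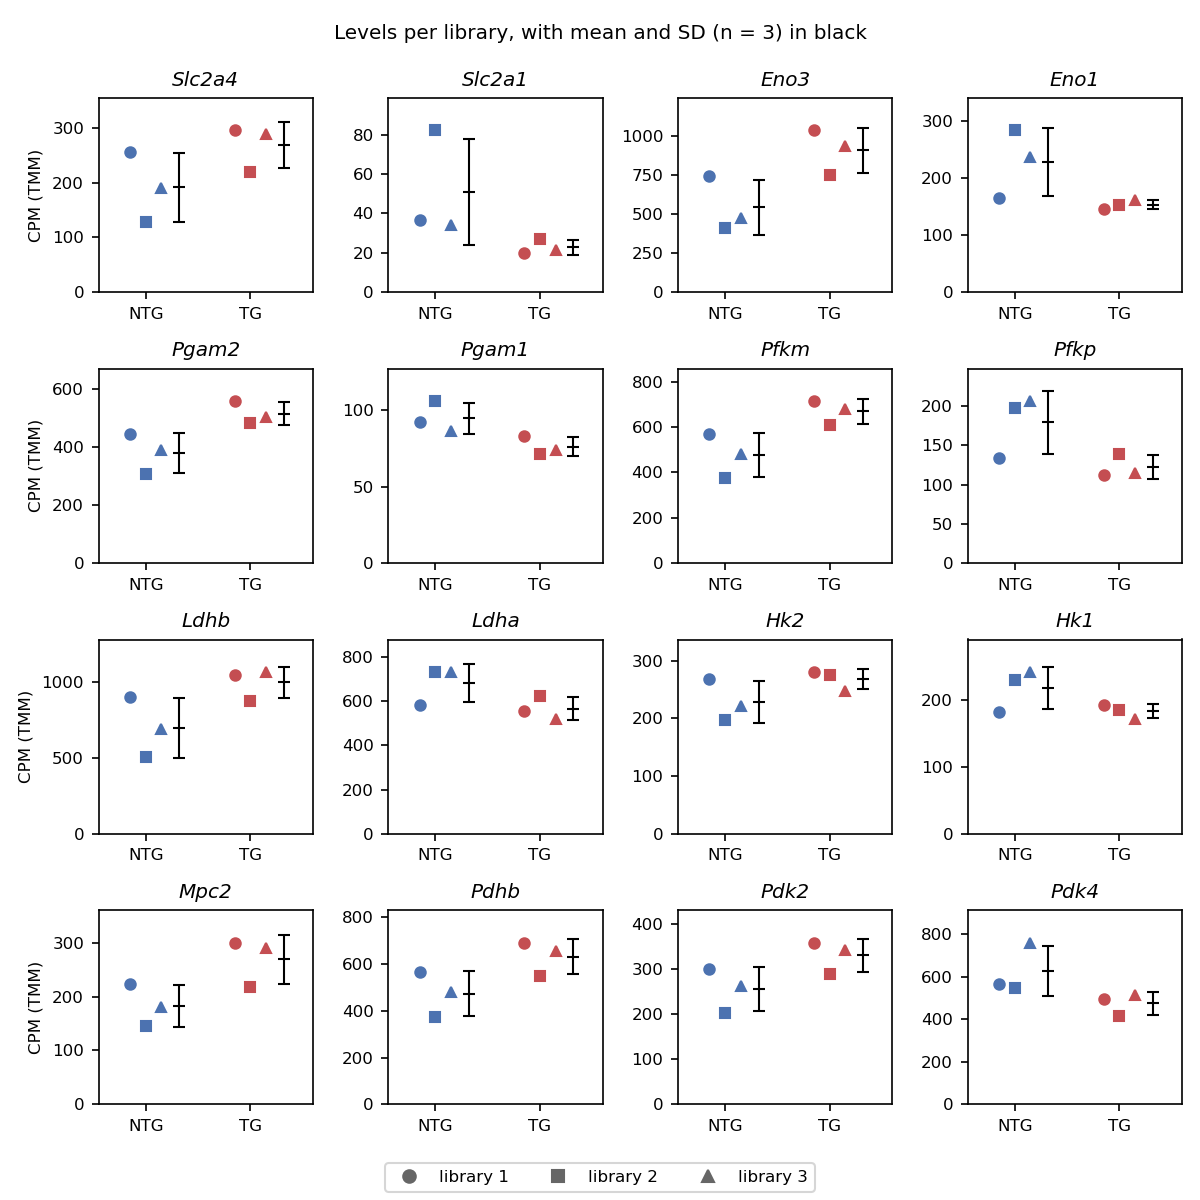
CPM (y axis, TMM-scaled, from 0) of 16 members in each library, by group, with circles, squares and triangles for libraries 1, 2 and 3 and black marks for the mean and SD of 3 libraries. Eno3, Pgam2 and Pfkm have all TG libraries above NTG, Slc2a1, Eno1, Pgam1 and Pdk4 have all below, and NTG 2 is the NTG library farthest from TG in most panels.

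At the step from pyruvate to lactate, the Ldhb subunit, which is typical of heart, had 901, 503 and 691 CPM in NTG and 1047, 878 and 1067 CPM in TG (log2 fold change 0.51, SE 0.21, unadjusted p = 0.0433). Ldha, the subunit typical of glycolytic tissue, had 584, 733 and 734 CPM in NTG and 557, 623 and 520 CPM in TG (log2 fold change -0.27, SE 0.14, unadjusted p = 0.0967). Both overlapped between the groups, in each case through the library labelled NTG 1. The ratio of Ldhb to Ldha per length was 3.26, 1.45 and 1.99 in NTG and 3.96, 2.97 and 4.33 in TG, so TG 2 lay below the library labelled NTG 1. Ldhd, which oxidizes D-lactate, had 35.2, 20.02 and 22.8 CPM in NTG and 41.6, 32.1 and 39.8 CPM in TG (log2 fold change 0.54, SE 0.22, unadjusted p = 0.0380), and 0.82 on the log2 scale without the library labelled NTG 1 (edgeR adjusted p = 0.0264), but 0.38 without NTG 2 (adjusted p = 0.534). Ldhb was at 0.74 without that library and at 0.32 without NTG 2, and Ldha at -0.37 and -0.22.

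**Figure D4:**
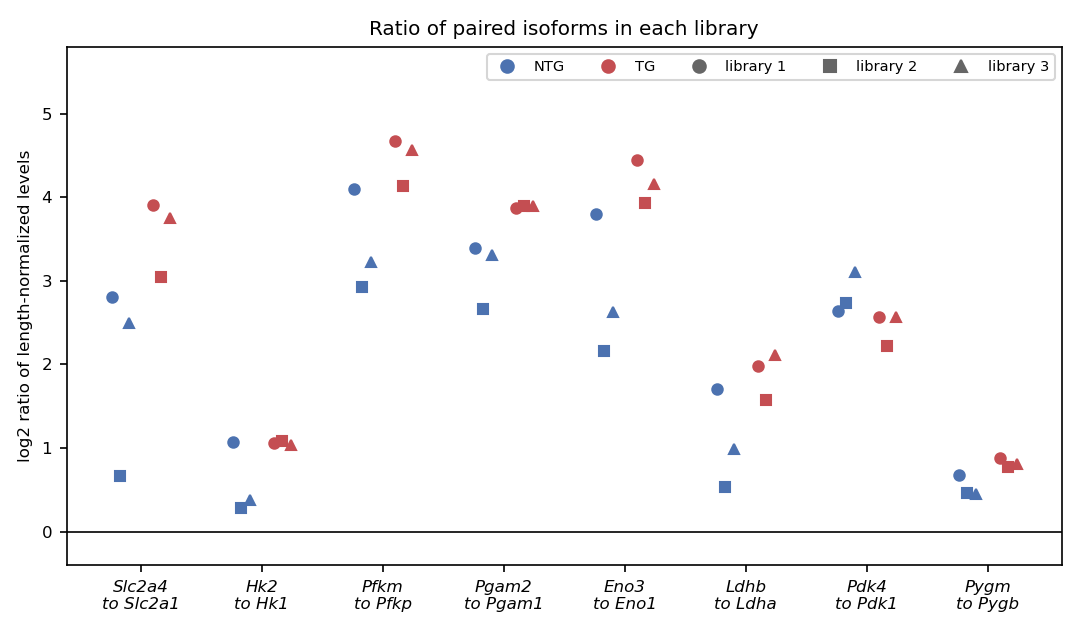
Ratio of the length-normalized levels of paired isoforms (y axis, log2) in each library, NTG in blue and TG in red. The ratios for Slc2a4, Pfkm, Pgam2, Eno3 and Pygm lie above NTG in every TG library, that for Pdk4 lies below, and those for Hk2 and Ldhb overlap. For Pfkm, TG 2 lies just above the library labelled NTG 1. The pairs were chosen with earlier results known, and the share of other gene pairs that separate was not computed. Heights compare libraries and are not isoform proportions.

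The mitochondrial pyruvate carrier is made of Mpc1 and Mpc2. Mpc2 had 224, 145 and 180 CPM in NTG and 300, 217 and 291 CPM in TG (log2 fold change 0.56, SE 0.19, unadjusted p = 0.0174), with overlap of TG 2 and the library labelled NTG 1. Mpc1 had 38.4, 31.0 and 35.8 CPM in NTG and 42.5, 36.6 and 45.2 CPM in TG (log2 fold change 0.24, SE 0.12, unadjusted p = 0.0792). A copy listed as a pseudogene of Mpc1 held more counts than Mpc1 itself, and the sum of both was 137 to 185 CPM in NTG and 170 to 225 CPM in TG. Mpc2 was at 0.73 and Mpc1 at 0.31 without the library labelled NTG 1, and without NTG 2 at 0.42 and 0.16.

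All 5 genes of the PDH complex were higher in TG, with a median log2 fold change of 0.32, beside 0.41 for the cardiomyocyte markers, and none passed the test over all libraries, while DESeq2 called Dld and Pdhb without the library labelled NTG 1 (adjusted p = 0.00461 and 0.0131). Pdha1, the catalytic alpha subunit, had 586, 447 and 528 CPM in NTG and 710, 580 and 655 CPM in TG (log2 fold change 0.32, SE 0.15, unadjusted p = 0.0636). Pdhb, its beta partner, had 566, 373 and 482 CPM in NTG and 692, 551 and 655 CPM in TG (log2 fold change 0.42, SE 0.18, unadjusted p = 0.0457). Dld, the lipoamide dehydrogenase shared with other mitochondrial complexes, had 335, 222 and 253 CPM in NTG and 406, 304 and 379 CPM in TG (log2 fold change 0.43, SE 0.18, unadjusted p = 0.0451). In each of these the library labelled NTG 1 reached into the TG range and NTG 2 was lowest. The acetyltransferase Dlat had 339, 255 and 306 CPM in NTG and 425, 321 and 367 CPM in TG (log2 fold change 0.31, unadjusted p = 0.0783). The binding subunit Pdhx had 133, 90.1 and 117 CPM in NTG and 139, 114 and 153 CPM in TG (log2 fold change 0.25, unadjusted p = 0.165). All 5 values were larger without the library labelled NTG 1, at 0.41 for Pdha1, 0.56 for Pdhb, 0.61 for Dld, 0.40 for Dlat and 0.38 for Pdhx. Without NTG 2 they were smaller, at 0.22 for Pdha1, 0.27 for Pdhb and 0.30 for Dld. NTG 2 was the lowest library for Dlat and Pdhx too, so their NTG means would also lie closer to TG without it.

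Of the kinases that switch the complex off, Pdk4, which is induced by fatty acids and fasting, had 568, 548 and 761 CPM in NTG and 496, 415 and 514 CPM in TG. The TG libraries lay below NTG (log2 fold change -0.40, SE 0.17, unadjusted p = 0.0431, edgeR adjusted p = 0.255), and this difference was -0.46 without the library labelled NTG 1 and -0.23 without NTG 3, the highest library (adjusted p = 0.143 and 0.511). Pdk2 had 301, 203 and 264 CPM in NTG and 359, 290 and 343 CPM in TG (log2 fold change 0.37, SE 0.16, unadjusted p = 0.0539), with overlap, and was at 0.50 without the library labelled NTG 1 and 0.23 without NTG 2. Pdk3 was rare, at 5.73, 5.79 and 4.28 CPM in NTG and 3.39, 3.64 and 4.01 CPM in TG, without overlap (log2 fold change -0.51, SE 0.21, unadjusted p = 0.0395). Pdk1, with 202, 182 and 195 CPM in NTG and 185, 198 and 191 CPM in TG, differed by -0.01 (SE 0.09, unadjusted p = 0.889), and the ratio of Pdk4 to Pdk1 per length was 6.22, 6.65 and 8.64 in NTG and 5.93, 4.65 and 5.95 in TG. Of the phosphatases that switch it on, Pdp2 had 7.58, 4.78 and 5.61 CPM in NTG and 12.98, 5.51 and 10 CPM in TG, a difference of 0.66 with wide spread (SE 0.32, unadjusted p = 0.0745). DESeq2 called Pdp2 only without TG 2, its lowest TG library. Pdp1 differed by 0.03 (unadjusted p = 0.867). With the library labelled NTG 1 left out, Pdk3 was at -0.45, Pdk1 at 0.02, Pdp2 at 0.86 and Pdp1 at 0.21.

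The glycogen enzymes gave small differences. Pygm, the muscle phosphorylase that releases glucose from glycogen, had 691, 503 and 665 CPM in NTG and 800, 730 and 747 CPM in TG, without overlap (log2 fold change 0.29, SE 0.15, unadjusted p = 0.0902). Gyg, the glycogenin that starts a glycogen particle, had 210, 199 and 201 CPM in NTG and 166, 184 and 173 CPM in TG, without overlap (log2 fold change -0.22, SE 0.09, unadjusted p = 0.0445). Pygb, the brain phosphorylase, differed by 0.01 (544 to 729 CPM in NTG, 636 to 651 CPM in TG) and the synthase Gys1 by 0.15 (74.7 to 92.4 CPM in NTG, 89.8 to 94.5 CPM in TG, unadjusted p = 0.182). Without the library labelled NTG 1 the values were 0.38 for Pygm, -0.20 for Gyg, 0.01 for Pygb and 0.15 for Gys1. NTG 2 was the lowest library for Pygm (503 CPM) and Gys1 (74.7 CPM), so their NTG means would lie closer to TG without it. The ratio of Pygm to Pygb per length, a pair added after the values were seen, was 1.6, 1.38 and 1.36 in NTG and 1.84, 1.71 and 1.76 in TG.

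Among 93 further genes of glucose metabolism that could be tested, of 108 listed, 9 were higher and 14 lower at an unadjusted p under 0.05 (beside 8.83% and 9.76% of all genes), and edgeR called 0. DESeq2 called 3 higher and 6 lower (beside 1.54% and 2.4%). The 4 with the smallest p by direction were Pgm1, a phosphoglucomutase, at a log2 fold change of -0.65 (unadjusted p = 0.00147), Bpgm, which makes bisphosphoglycerate, at -0.61 (unadjusted p = 0.00176), Galm, the galactose mutarotase, at 0.69 (unadjusted p = 0.00240), and Esrra, the estrogen-related receptor alpha, at 0.61 (unadjusted p = 0.00552). The others that DESeq2 called were Hif1a, the oxygen-sensing subunit of HIF, at -0.84, Slc16a3, the lactate exporter of glycolytic cells, at -1.87, Gfpt2 at -0.73, H6pd at -0.76 and Sord, sorbitol dehydrogenase, at 1.0. Slc16a3 had 21.2, 57.8 and 17.4 CPM in NTG and 7.93, 12.5 and 5.86 CPM in TG, with NTG 2 high as it was for Slc2a1. Its edgeR adjusted p was 0.198, and its log2 fold change was -1.13 without NTG 2 and -2.10 without the library labelled NTG 1 (adjusted p = 0.419 and 0.129). Leaving out the library labelled NTG 1 gave -0.70 for Pgm1, -0.74 for Bpgm, 0.78 for Galm, 0.75 for Esrra, -0.96 for Hif1a, -0.84 for Gfpt2, -0.96 for H6pd, 1.34 for Sord and -0.71 for the HIF target Bnip3, of which edgeR then called all but Gfpt2 and Sord. Leaving out NTG 2 gave sizes of the same sign, such as -0.57 for Hif1a and -0.47 for H6pd, and edgeR called none of the 10 (adjusted p = 0.372 to 0.515). Hkdc1, Pgk2, Pklr and Ldhc were at 0 in all 6 libraries. Of 6 HIF target genes outside the members, 5 were lower in TG, of which 2 had an unadjusted p under 0.05 and 1 was called by DESeq2 (Bnip3, at a log2 fold change of -0.55, named after its values were seen), and Vegfa, the 1 that was higher, also had an unadjusted p under 0.05. The sums of the 6 overlapped (495 to 540 CPM in NTG, 472 to 526 CPM in TG). Of 4 hypertrophy genes, 4 were lower, of which 1 (Nppb) had an unadjusted p under 0.05, and their sums overlapped (8248 to 12252 CPM in NTG, 4896 to 10798 CPM in TG).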

How the data were processed

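Poly-A RNA-seq of 3 TG and 3 NTG left ventricles was analysed. The counts the authors deposited are whole reads per gene, 1 column per library, without normalization or pooling. Per the labels and the study's methods, reads were mapped with HISAT2, counted with featureCounts and compared with DESeq2. The labels name the human build GRCh38, while 98.33% of the 54409 genes shared with GENCODE mouse release 21 (GRCm38) have identical positions there, so positions are given on GRCm38. Strand setting and treatment of multiply mapped reads are not given in the sources used here, and overlapping or copied genes are uncertain.

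Groups were compared by edgeR 4.0.16 in R 4.3.3 (TMM, filterByExpr by group, robust quasi-likelihood test, Benjamini-Hochberg over 14774 genes). Calls required both a log2 fold change beyond 0.5 in either direction and an adjusted p under 0.05. The standard error is the log2 fold change over the square root of F. Length-normalized levels are CPM per kilobase of the deposited gene length. For some members, such as Pfkp and Eno1, this length is much longer than the longest coding transcript. Ratios of isoforms are therefore compared between libraries and are not isoform proportions. No covariate was used. Alternatives were other scalings and filters, DESeq2 1.42.0, limma 3.58.1 (voom), a replicate block and leaving out each library, and 2 were added after the values were seen, DESeq2 with each library left out and the summing of near-identical copies. The tests were also run on counts simulated with 200 changed genes and libraries independent of each other. That setting lacks the order of libraries seen here, so it does not bear on why the tests disagree. Total counts were 14863568 to 17581220, and the common biological coefficient of variation was 18.7%. Per the study's methods, each group had 3 mice, so replicates are separate hearts.

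All 42 members were to be given a value. Values in every library were given for members at an unadjusted p under 0.05, for isoform pairs (as the ratio for Pygb, and not for Aldoc, which was too rare), and for Pdk2, Mpc1, Mpc2 and Pdha1, and of the wider lists the 2 genes with the smallest p in each direction and those called were named. The members and lists were chosen with earlier results of these data known. FPKM values were not used here.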

Additional observations from a re-analysis of the deposited data

How the results depend on the processing

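Of the 27 members followed through all 22 alternatives, 25 kept their direction. The exceptions among these were Aldoa and Pdk1, whose differences lay near 0 throughout (with a library left out, by edgeR or DESeq2, -0.053 to 0.065 for Aldoa and -0.055 to 0.026 for Pdk1). The other members tested were not followed in this way, among them Pfkfb3, whose lower mean in TG rests on NTG 2. The count of members called was 0 in edgeR and 2 in DESeq2. With 1 library left out, it was 0 to 4 in edgeR and 0 to 15 in DESeq2, the 4 and the 15 without the library labelled NTG 1, where edgeR called 404 genes higher and 432 lower of 15136, and DESeq2 896 higher and 870 lower of 14774. Without TG 2, DESeq2 called Pdp2, Slc2a1, Eno3 and Mpc2, beside 291 genes higher and 486 lower of 14774. Leaving out a library gave 0 to 18 members higher and 3 to 12 lower at an unadjusted p under 0.05, and a median log2 fold change of 0.019 to 0.16. Without a low-count filter, 5 members were lower at that threshold in place of 8 and 13 higher in place of 10, and edgeR called 116 genes higher and 116 lower. Under scaling by library size alone the median of all genes was -0.093 and that of the members -0.032, and members higher and lower numbered 7 and 10. The cause of these differences was not tested.

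With a replicate block, 16 members in place of 10 were higher at an unadjusted p under 0.05 and 6 in place of 8 lower (all genes at that p went from 2747 to 3236), 84 genes were called higher and 147 lower, and 0 members were called. Same-numbered libraries did not deviate together in every pair (correlations 0.081, 0.17 and -0.25), and only TG 2 correlated best with its own number, so the numbers were not taken to pair the libraries. Total counts of 14863568 to 17581220 left Pfkfb1 and Aldoc too thinly counted for a firm value.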
